A study of Oryza sativa Japonica Group with 8 samples.

Results

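In rice seedlings given a cold shock, 103 gene IDs had more transcript in the cold in transgenic plants carrying RD29A:DREB1a and less transcript in the cold in the non-transgenic control. They were picked from 37849 gene IDs that start with Os, among 38978 IDs in all. For the choice, counts were turned into counts per 1000000 counts of the library (CPM), and each group was given the value log2(mean CPM of its 2 libraries + 1). An ID was kept where this value was at least 0.8 higher in T_CS than in T_RT and at least 0.8 lower in N_CS than in N_RT. The cold comparison within each genotype, and the gap between the 2 genotypes' cold differences, therefore chose the members and are given here as a description with no test.

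The 4 groups, all of 10-day-old seedlings, were T_CS and T_RT (transgenic, after cold shock and at room temperature) and N_CS and N_RT (control, likewise). Cold shock lasted 20 h on crushed ice. The sample labels describe T as homozygous lines 11, 20 and 29 pooled. The methods instead name lines 11 and 29 as homozygous, name hemizygous lines as well, and do not name line 20. The labels call N wild type of the cultivar Taipei 309, whereas the design text takes as N the parental line T5, a Cre-lox founder that holds the target site. In T, DREB1a of Arabidopsis stands behind the RD29a promoter, an Arabidopsis promoter that cold and drought switch on, and the same locus holds the marker genes NPTII, GUS, GFP and pporRFP. T thus differs from N in the whole stacked locus and not in DREB1a alone. The transgene's own transcript was not analysed here, and the leaf identity of the samples was not checked against marker genes, since no source used here pairs such genes with these IDs. Each group was RNA of the aerial parts of 6 seedlings in 1 pool, from which 2 libraries were made, so every spread and p-value below covers the libraries of a pool and not the plants. Library totals ran between 18963211 and 24405824 counts.

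DREB1a is a transcription factor of the AP2/ERF family that binds the DRE/CRT element in the promoters of many cold- and drought-induced genes. Of the 5 members that the study names, 2 are JAZ genes, 2 are trehalose-6-phosphate synthase genes and 1 is a NAC gene. The other members have no name in the sources used here. JAZ proteins repress jasmonate-responsive transcription and are degraded when the hormone is perceived, and jasmonate itself commonly induces JAZ genes. NAC proteins are plant transcription factors, many of them stress-induced. Trehalose-6-phosphate synthase makes trehalose-6-phosphate, the precursor of trehalose and a signal of sugar status. Whether the members named so encode an active enzyme was not tested here.

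Quantitative PCR primers are shown for OsJAZ5 (Os03g0402800, chromosome 3) and ONAC59 (Os01g0862800, chromosome 1), because they mark the transcripts by which these members were also measured. Each is 20 bases long with a GC content of 50%, written 5′ to 3′, and the PCR values were not analysed here. The primers of ONAC59 carry the name OsNAC59.
qOsJAZ5-F: gtgtccttcttccatcttcc
qOsJAZ5-R: attggcctgagcaacaggaa
qOsNAC59-F: ggaaaacgacggatcaggaa
qOsNAC59-R: agtacagaagtgcggtcaag

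Within T, the cold difference of the 103 members ran between 0.80 and 3.58 with a median of 1.18, and within N between -2.22 and -0.81 with a median of -1.0. The difference was larger in T than in N, regardless of sign, in 66 members and smaller in 37. It reached 2 in T in 13 members, reached -1.5 or lower in N in 7, and was at least 1 in both genotypes in 37. Summed over the members, the 2 libraries held 7333 and 7471 CPM in T_CS, 2791 and 2776 CPM in T_RT, 1478 and 1492 CPM in N_CS, and 3131 and 3122 CPM in N_RT. The sum was thus highest in T_CS and lowest in N_CS, with both room-temperature groups in between and near each other. Each library holds RNA of a whole aerial part, so fewer cells of a type and less RNA per cell cannot be told apart.

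**Figure D1:**
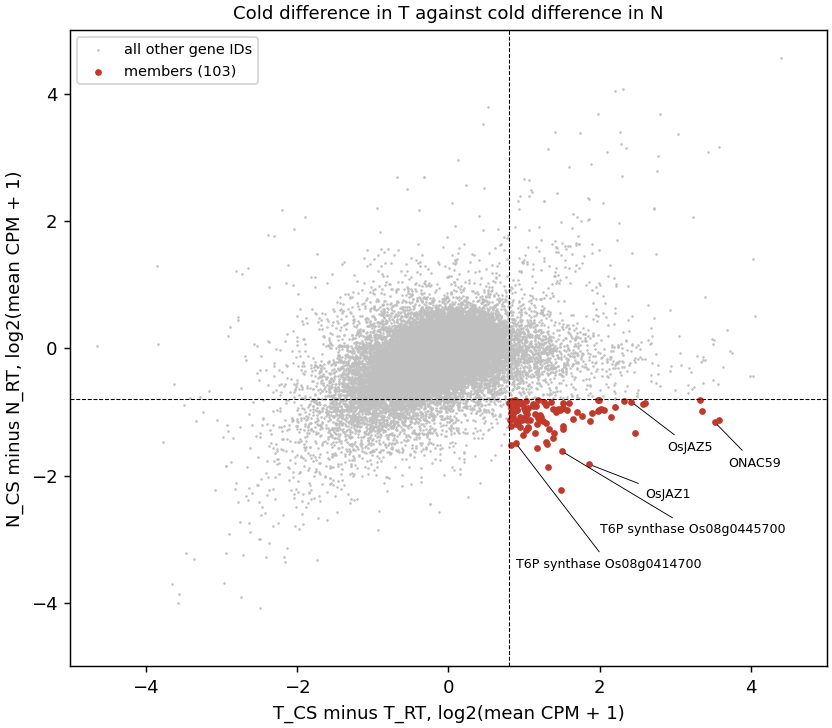
Cold difference in T (T_CS minus T_RT, horizontal axis) against that in N (N_CS minus N_RT, vertical axis), both on the log2(mean CPM + 1) scale, with 1 point for each gene ID. Dashed lines mark the required differences of 0.8 and -0.8, and the 103 members (red) fill the lower right corner, out to 3.58 in T and -2.22 in N.

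The members were a small share of either cold response. By the same differences, 1531 IDs were raised in T and 2220 were lowered in N, and the members made up 6.73% and 4.64% of these lists. Of the 34120 Os IDs with at least 1 count, 6.51% were lowered in N and 4.49% were raised in T, so the overlap of the lists was close to the share that each list takes of all IDs. Of the IDs raised in T, 156 were also raised in N and 1272 passed neither difference in N. Of those lowered in N, 1205 were lowered in T as well and 912 passed neither in T. The opposite pattern, lowered in T and raised in N, was met by 62 IDs.

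The 2 libraries of a group lay close together in these genes. The median fold between them was 1.06 in T_CS, 1.05 in T_RT, 1.10 in N_CS and 1.05 in N_RT. The largest folds between libraries were 1.45 in T_CS (Os07g0418100), 1.66 in T_RT and 2.08 in N_CS (both Os01g0958200), and 1.37 in N_RT (Os03g0188400). Both T_CS libraries lay above both T_RT libraries in all 103 members (31.7% of all tested genes), and both N_CS libraries lay below both N_RT libraries in all 103 (44.8% of all tested genes), 2 counts that the choice largely fixes. Both T_CS libraries lay above the 6 other libraries in 101 members, against 16.7% of all tested genes. Both N_CS libraries lay below the 6 others in 97 members, against 13.7%. The choice also favours these 2 counts, since it asks for a high T_CS and a low N_CS.

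**Figure D2:**
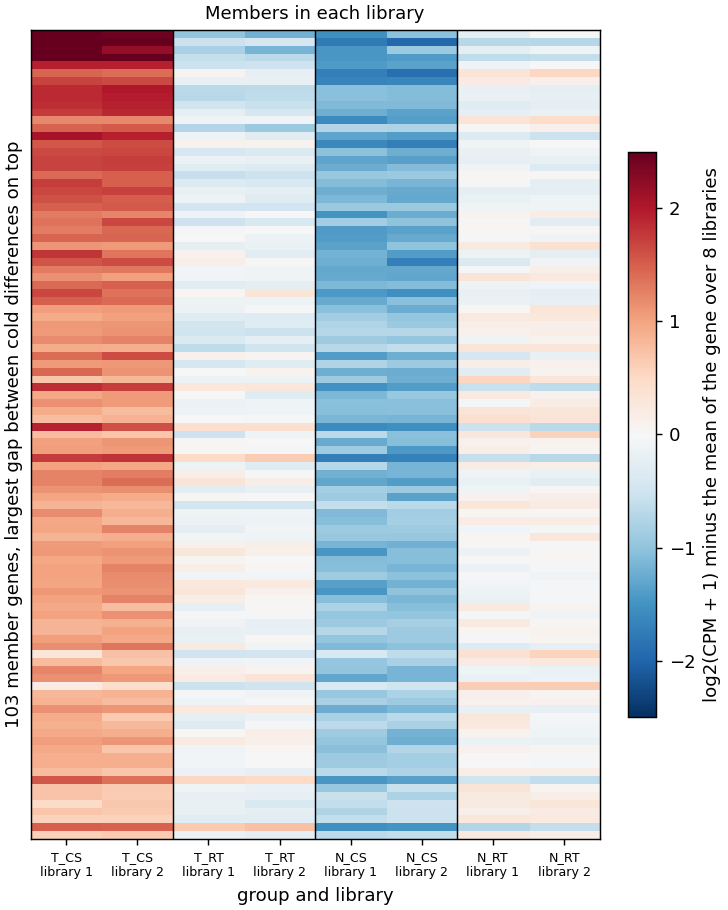
The 103 members (1 line each, largest gap between the cold differences of T and N on top) in the 8 libraries, coloured by log2(CPM + 1) minus the gene's mean over the libraries. The T_CS columns are red and the N_CS columns blue almost throughout, and T_RT and N_RT lie between them.

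Of 5 JAZ genes with an ID in the gene lists used here, which come from the paper, 2 were members. OsJAZ1 (Os10g0392400) had 83.7 and 81.1 CPM in T_CS, 21.9 and 22 CPM in T_RT, 7.21 and 7.38 CPM in N_CS, and 29.1 and 27.6 CPM in N_RT. Its cold differences were of nearly equal size in the 2 genotypes, 1.86 in T and -1.82 in N. OsJAZ5 had 388 and 410 CPM in T_CS, 75.4 and 72.5 CPM in T_RT, 49.3 and 49.6 CPM in N_CS, and 87.1 and 91.4 CPM in N_RT. Its difference was 2.42 in T and -0.84 in N, near the limit, and with TMM- or RLE-scaled library sizes OsJAZ5 was no longer a member. For both genes the libraries of the 4 groups did not overlap, in the order T_CS, N_RT, T_RT, N_CS.

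The other JAZ genes shared the higher level in T_CS but not the lower level in N_CS that the rule asks for. OsJAZ2 (Os03g0180900) had 37.2 and 37.2 CPM in T_CS against 3.22 and 2.63 CPM in T_RT, and 3.19 and 2.9 CPM in N_CS against 3.36 and 3.42 CPM in N_RT. For OsJAZ8/9 (Os09g0439200) the cold difference was 2.75 in T and -0.08 in N, and for OsJAZ11 (Os04g0395800) 2.19 in T and -0.67 in N. OsJAZ11 was low in the control, at 0.0874 and 0.204 CPM in N_CS and 1.19 and 0.466 CPM in N_RT, where the offset of 1 shrinks a difference. It met the rule when the offset was 0.5. No gene of jasmonate synthesis was a member: all 5 on that list were raised in T and none was lowered in N by the rule. For OsOPR6 (Os06g0215500) this was fixed in advance, with 0 CPM in every N library. The lipoxygenase gene OsLOX1a (Os03g0738600), with 1.84 in T and -0.74 in N, came nearest and also met the rule with an offset of 0.5.

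ONAC59, a NAC transcription factor gene, had the second largest gap of all members, 4.68. It had 50.9 and 54.7 CPM in T_CS, 3.49 and 3.90 CPM in T_RT, 0.918 and 0.662 CPM in N_CS, and 3.03 and 2.95 CPM in N_RT. The N_CS values rest on 21 and 13 counts. ONAC59 was nearly level between the genotypes at room temperature and stood apart in both directions after cold, by 3.52 in T and -1.16 in N. The bHLH148-like gene (Os01g0773800), a transcription factor gene listed beside it, had a larger difference in T, 3.75, but 0.0874 and 0 CPM in N_CS and 0.0819 and 0.104 CPM in N_RT, at or near 0 in the control. None of the 8 listed WRKY and 6 listed ERF genes was a member. Some were too low in N_RT to fall by 0.8 with the offset of 1. Examples are OsERF118 (Os11g0168500), with 0 and 0 CPM in N_RT, and OsWRKY8 (Os05g0583000), with 0.410 and 0.415 CPM. Others, such as OsWRKY76 (Os09g0417600) with 2.25 and 2.70 CPM in N_RT, were not that low.

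Both trehalose-6-phosphate synthase genes on the lists were members. Os08g0445700 had 53.1 and 56.0 CPM in T_CS, 18.8 and 18.5 CPM in T_RT, 4.98 and 4.63 CPM in N_CS, and 16.1 and 17.5 CPM in N_RT. The genotypes had similar levels at room temperature, and the cold differences of 1.5 in T and -1.62 in N were again of similar size. Os08g0414700 had 26.0 and 28.7 CPM in T_CS, 14.3 and 14.3 CPM in T_RT, 7.87 and 6.11 CPM in N_CS, and 23.2 and 19.6 CPM in N_RT. Its difference was larger in N, -1.49, than in T, 0.89, and T_CS stood only a little above N_RT.

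**Figure D3:**
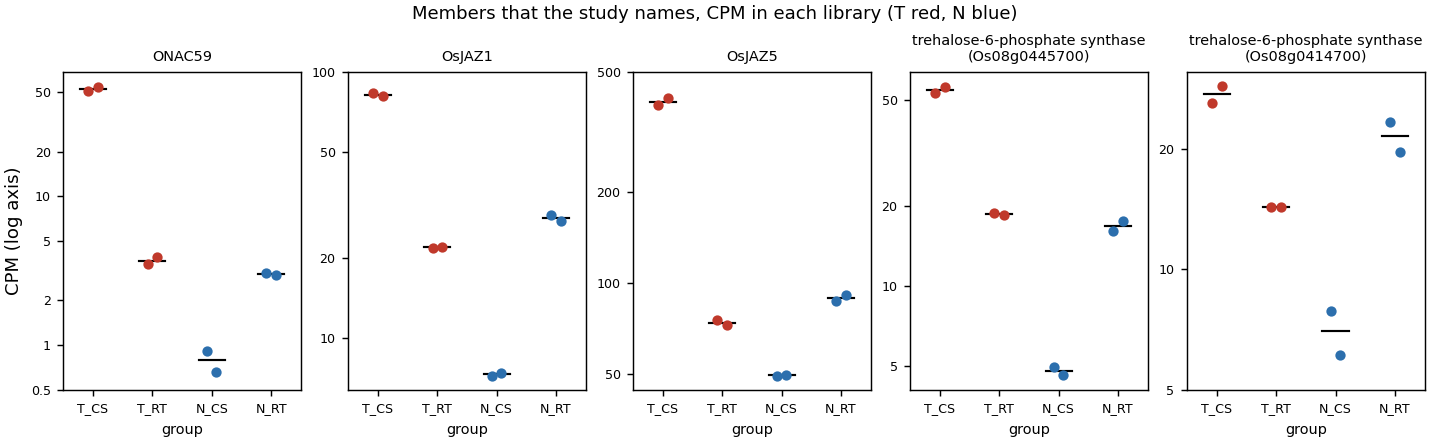
CPM (log axis) of the 5 members with a gene name, in the groups T_CS, T_RT, N_CS and N_RT. Points are the 2 libraries (T red, N blue) and bars their mean. In all 5 genes T_CS is the highest group and N_CS the lowest, for ONAC59 with 0.918 and 0.662 CPM in N_CS.

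In all, 5 of the 65 listed genes were members, 42 were raised in T and 7 were lowered in N. The study chose most of these genes on the same libraries, mainly by T_CS against N_CS. That choice favours a high T_CS and a low N_CS, so their direction in T or in N is not independent evidence. Raised in T without being lowered in N were 37. Some of these were low in the control, where the offset of 1 shrinks a fall. The terpene synthesis gene OsGGPS7 (Os01g0248701), with 1.39 in T and -0.78 in N, met the rule with an offset of 0.5, as OsJAZ11 and OsLOX1a did. Lowered in N without being raised in T were 2, the universal stress protein gene OsUSP36 (Os10g0437500) and the NADPH oxidase gene OsRBOH (Os12g0541300). OsUSP36 had 17.6 and 11.7 CPM in T_CS, 17.6 and 20.6 CPM in T_RT, 0.350 and 0.509 CPM in N_CS, and 5.49 and 4.82 CPM in N_RT. Its difference was -2.11 in N, about as low as that of the lowest member, and -0.36 in T. The rice DREB1 genes on the lists, OsDREB1A, OsDREB1C and OsDREB1G, had cold differences of 0.56, 2.57 and 2.06 in N, opposite in sign to the members. In T their differences were 2.04, 0.24 and 1.70, and none of the 3 was a member.

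Of the 10 members with the largest gap, 7 are known only by their ID in the sources used here. Os03g0289800 had the largest gap, 4.71, with 34.7 and 31.6 CPM in T_CS, 2.07 and 1.64 CPM in T_RT, 1.09 and 1.99 CPM in N_CS, and 4.14 and 4.98 CPM in N_RT. Its neighbour by ID, Os03g0289850, had 27.7 and 22.1 CPM in T_CS, 1.84 and 1.23 CPM in T_RT, 0.830 and 1.63 CPM in N_CS, and 3.20 and 3.63 CPM in N_RT. The pair moved together in every library, and 1 N_CS library of each overlapped the T_RT libraries. Os06g0203600 had 77.0 and 86.7 CPM in T_CS, 7.49 and 7.10 CPM in T_RT, 3.71 and 3.82 CPM in N_CS, and 7.29 and 7.46 CPM in N_RT. The room-temperature libraries of both genotypes overlapped in this gene.

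Os03g0122300 had 120 and 121 CPM in T_CS, 20.9 and 21.1 CPM in T_RT, 10.9 and 11.5 CPM in N_CS, and 28.6 and 30.9 CPM in N_RT. Os03g0187400 had the largest difference in N of all members, -2.22, with 28.2 and 27.2 CPM in T_CS, 10.1 and 8.29 CPM in T_RT, 2.27 and 1.88 CPM in N_CS, and 12.4 and 14.3 CPM in N_RT. In both genes the 4 groups kept apart, with T_RT below N_RT.

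Os05g0573400 had 148 and 163 CPM in T_CS, 24.5 and 25 CPM in T_RT, 18.6 and 18.2 CPM in N_CS, and 34.7 and 33.5 CPM in N_RT. The neighbouring Os05g0573300 had 182 and 194 CPM in T_CS, 30.2 and 31.2 CPM in T_RT, 23.4 and 22.7 CPM in N_CS, and 43.6 and 42.4 CPM in N_RT. The ratio of the pair stayed between 1.19 and 1.27 in the 8 libraries, and reads shared between the 2 IDs cannot be told from separate transcripts. Os06g0203600 and this pair, with -0.81, -0.86 and -0.87 in N, were not members with TMM- or RLE-scaled library sizes.

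The rule did not set the difference between T_RT and N_RT, but it used these libraries: a low T_RT or a high N_RT helps a gene to be chosen, and counts are therefore read as a description. On the log2(mean CPM + 1) scale, T_RT minus N_RT ran between -1.15 and 1.35 with a median of -0.18. It was -0.5 or lower in 18 members, 0.5 or higher in 5, and between these values in 80. Both T_RT libraries lay above both N_RT libraries in 25 members, against 22.2% of all tested genes, and both lay below in 61, against 39.8%. In an edgeR quasi-likelihood fit over 28218 genes with TMM scaling and Benjamini-Hochberg adjustment, at an FDR of at most 0.01, 16 members (15.5%) were higher in T_RT than in N_RT and 32 (31.1%) were lower. The same calls covered 9.44% and 7.5% of all tested genes. With a log2 fold change of at least 2 or at most -1 required as well, 0 members were higher (0.553% of all tested genes) and 6 were lower (0.454%).

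The 6 lower members, picked out on this contrast and given as a description, were Os07g0418100 (log2 fold change -1.33 ± 0.27 SE), Os03g0289800 (-1.22 ± 0.21), Os04g0584002 (-1.12 ± 0.08), Os04g0405300 (-1.09 ± 0.19), Os03g0289850 (-1.08 ± 0.24) and Os01g0958200 (-1.02 ± 0.29), each in T_RT versus N_RT in the edgeR fit. The call of Os03g0289850 was lost without T_RT replicate 2 (edgeR FDR 0.0359), and that of Os01g0958200 without N_RT replicate 2 (edgeR FDR 0.102), without T_RT replicate 1 (0.153) and with DESeq2 (0.0466). Most of these genes had few counts at room temperature, such as 1.29 and 1.31 CPM in T_RT and 3.20 and 3.73 CPM in N_RT for Os07g0418100. Among the members described above, Os03g0122300 (-0.42 ± 0.07), the pair Os05g0573300 (-0.41 ± 0.06) and Os05g0573400 (-0.39 ± 0.07), and the trehalose-6-phosphate synthase gene Os08g0414700 (-0.52 ± 0.10) were also lower in T_RT than in N_RT in the edgeR fit. The JAZ genes were lower by less, OsJAZ1 with -0.30 ± 0.08 and OsJAZ5 with -0.20 ± 0.04. Their calls were lost without single room-temperature libraries, for OsJAZ1 without N_RT replicate 1 (edgeR FDR 0.0522), T_RT replicate 1 (0.0187) or T_RT replicate 2 (0.0149) and also with DESeq2 (FDR 0.0116), and for OsJAZ5 without N_RT replicate 2 (edgeR FDR 0.0232) or T_RT replicate 2 (0.0202). The call of Os08g0414700 was lost without N_RT replicate 1 (edgeR FDR 0.0242). For Os03g0187400 (-0.46 ± 0.12) it was lost without N_RT replicate 2, without T_RT replicate 2 and with DESeq2 (FDR 0.0709, 0.121 and 0.0189). ONAC59 (0.38 ± 0.18, FDR 0.123), Os06g0203600 (0.06 ± 0.13, FDR 0.811) and Os08g0445700 (0.23 ± 0.09, FDR 0.0525) passed no threshold in the edgeR fit at room temperature.

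The 5 members at least 0.5 higher in T_RT than in N_RT were picked out by this difference, and their values are a description with no test. Os04g0586500 had 29.9 and 29.4 CPM in T_CS, 16.1 and 17.0 CPM in T_RT, 2.80 and 2.85 CPM in N_CS, and 5.61 and 6.22 CPM in N_RT. Os03g0432100 had 246 and 219 CPM in T_CS, 121 and 119 CPM in T_RT, 29.9 and 32.0 CPM in N_CS, and 58.8 and 53.9 CPM in N_RT. In both genes all T libraries stood above all N libraries, and T_RT exceeded N_RT by a fitted log2 fold change of 1.57 ± 0.12 (SE) and 1.16 ± 0.05. Os07g0526400 (1.37 ± 0.12 SE) and the neighbouring IDs Os01g0880800 (1.33 ± 0.19) and Os01g0880850 (1.23 ± 0.20) shared this order.

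Across the 4 group values, 68 members had the order T_CS, N_RT, T_RT, N_CS from high to low, and 33 had T_CS, T_RT, N_RT, N_CS. The 2 others, Os04g0405300 and Os04g0584002, had their lowest value in T_RT. Os04g0584002 was the only member whose T_CS value, from 30.5 and 35.9 CPM, lay below its N_RT value, from 40.9 and 41.5 CPM, beside 17.8 and 18.3 CPM in T_RT and 20.0 and 18.4 CPM in N_CS. In 102 members T_CS thus exceeded N_RT, in 76 of them by at least 0.8, with a median difference of 1.15. The choice favours these orders and this excess. It sets T_CS at least 0.8 above T_RT, and N_CS at least 0.8 below N_RT.

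After cold shock, the choice fixes T_CS minus N_CS at no less than 1.6 above T_RT minus N_RT, so the following values describe its outcome. T_CS minus N_CS ran between 0.76 and 4.91, with a median of 2.23 on the log2(mean CPM + 1) scale, and both T_CS libraries lay above both N_CS libraries in all 103 members (28.9% of all tested genes). In the edgeR fit all 103 were higher in T_CS than in N_CS at an FDR of at most 0.01 (21.4% of all tested genes), and 81 of them had a log2 fold change of at least 2 (2.39%). The median fitted log2 fold change was 2.56 over the members, against -0.05 over all tested genes. It was largest in ONAC59, 6.11 ± 0.15 (SE), and lowest in Os04g0584002, 0.86 ± 0.08. Os08g0445700 had 3.58 ± 0.10 and Os08g0414700 had 2.03 ± 0.11. At room temperature the medians were -0.11 over the members and 0.00 over all tested genes.

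**Figure D4:**
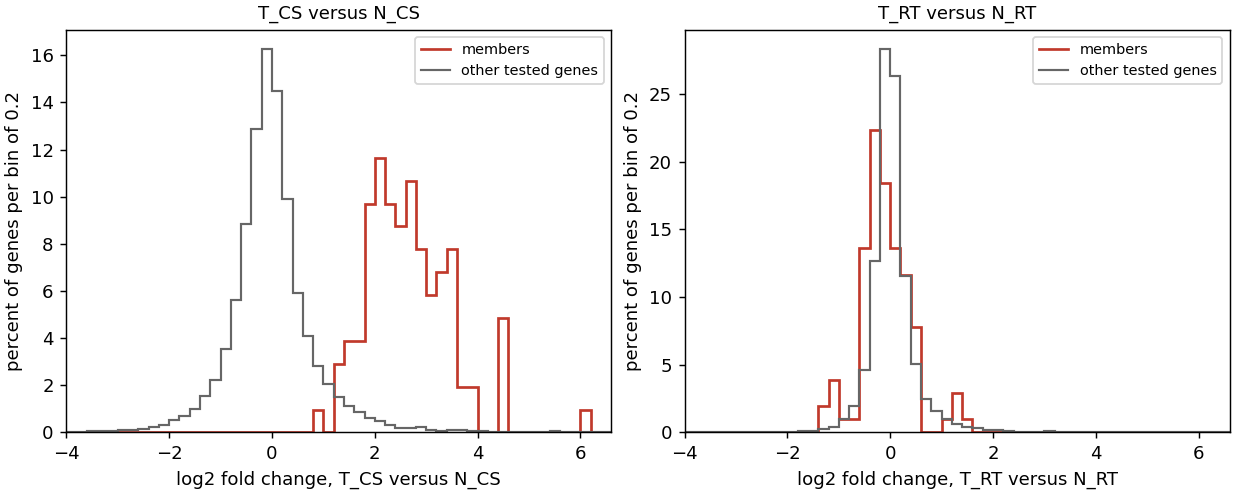
Percent of genes in bins of 0.2 of the fitted log2 fold change, for T_CS versus N_CS (left) and T_RT versus N_RT (right), for the 103 members (red) and all other tested genes (grey). After cold the members centre on 2.56 and at room temperature on -0.11.

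At the threshold, the members just inside were Os04g0586500 (0.80 in T and -0.85 in N), Os03g0606333 (1.18 and -0.81) and Os05g0414750 (0.89 and -0.81). The IDs just outside were Os02g0787966 (2.21 and -0.80 after rounding), Os12g0564100 (1.04 in T) and Os07g0615200 (1.09 in T), the last 2 also with -0.80 in N after rounding. All 3 missed the limit in N by less than 0.01.

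Position along the genome was not used in the choice, and it is read here from the IDs, which carry the chromosome and the order of the genes. There were 15 pairs of members with neighbouring IDs, which took in 30 members, and no run was longer than 2. In 4 of the pairs the larger count exceeded the smaller by no more than 25% in all 8 libraries (Os01g0956200 and Os01g0956300, Os05g0501400 and Os05g0501500, Os07g0677350 and Os07g0677400, Os09g0454900 and Os09g0455000), so the 2 IDs may count the same reads. In 14 of the 15 pairs the ratio between the IDs varied by less than 1.5-fold over the libraries. The exception was Os09g0246300 and Os09g0246500, whose ratio ran between 1.14 and 2.61. The members came to 88 with each pair counted once. A neighbouring ID in the same list was thus found for 29.1% of the members. The share was 49.7% of the 1531 IDs raised in T and 39.5% of the 2220 lowered in N. It was 9.68% of the 62 IDs lowered in T and raised in N. These shares depend on the length of each list.

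By chromosome, 18 members lay on chromosome 1 and 17 on chromosome 3, which also hold the most gene IDs with at least 100 counts. Chromosome 2 held 4 members (3.88%, against 11.8% of such IDs) and chromosome 12 held 1 (0.971%, against 5.5%), while chromosome 9 held 9 (8.74%, against 5.43%). These shares count both IDs of a neighbouring pair. On chromosome 9 such pairs were Os09g0246300 and Os09g0246500, Os09g0454900 and Os09g0455000, and Os09g0536700 and Os09g0536800. No test was made of these shares.

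**Figure D5:**
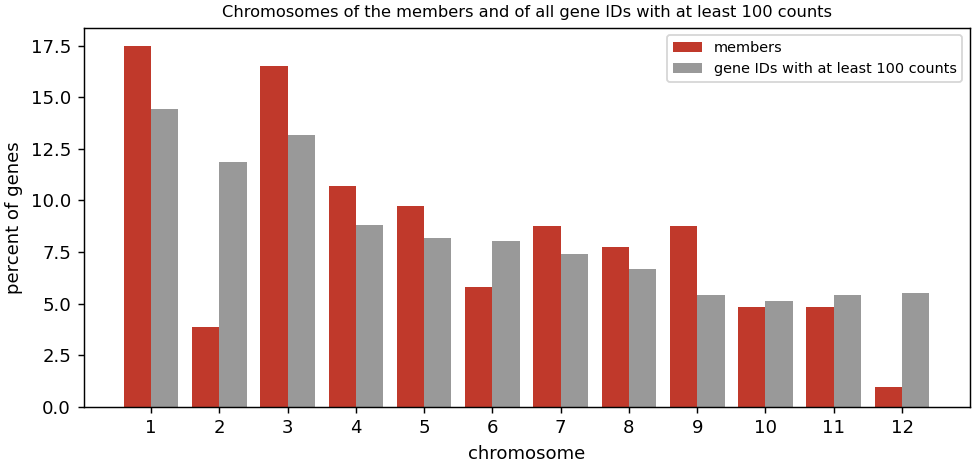
Percent of the 103 members (red) and of gene IDs with at least 100 counts (grey) on each of the 12 chromosomes. Members are below the share of IDs on chromosomes 2 and 12 and above it on chromosome 9, with 4, 1 and 9 members. Both IDs of a neighbouring pair are counted.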

How the data were processed

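RNA-seq counts were taken for 8 poly(A) libraries, 2 from each of 4 RNA pools. Per the methods, the authors trimmed reads with Trimmomatic, aligned them with STAR to IRGSP-1.0 and counted them with featureCounts 1.6.4 on Ensembl Plants release 48. The strand setting and the treatment of reads with several matches are not given in the sources used here. The deposited values are whole-number counts with unequal totals, used as raw counts, and no column was left out.

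The members and gene lists were chosen with earlier results of these data known. Named are members that the study gives with an ID, the 10 with the largest gap, 3 IDs on each side of the threshold and members in runs of 3 or more neighbours, of which there were none. Other IDs were named after their values were seen. The reference table at hand, of another build, held 1 of the 38978 IDs and no member, so names come from the study and no genome coordinates are given.

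Genes were kept by filterByExpr (minimum count 10, minimum total count 15), which left 28218, all 103 members among them. An edgeR 4.0.16 quasi-likelihood fit in R 4.3.3, with 1 mean per group and TMM factors between 0.935 and 1.07, gave fold changes, and steps were tested on simulated data. TMM in place of library totals moves a log2 ratio of CPM between cold and room temperature upwards by 0.115 in T and 0.11 in N, and less where the offset of 1 weighs on a low CPM. Alternatives were DESeq2 1.42.0, RLE factors, other offsets, differences, filters and thresholds, the 4 libraries of a comparison alone, a replicate block, near-equal neighbours left out and each library left out.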

Additional observations from a re-analysis of the deposited data

Results flagged for a closer look

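In 103 of 103 members both T_CS libraries lay above both T_RT libraries while both N_CS libraries lay below both N_RT libraries, a count that the choice largely fixes. Taken alone, the condition in T held in 31.7% of all tested genes and the condition in N in 44.8%. The difference between the genotypes was not tested, since the members were chosen for it.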

How the results depend on the processing

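The number of members followed the required difference, with 381 IDs at 0.5 and 37 at 1 in place of 103 at 0.8. It was 134 and 85 with offsets of 0.5 and 2, 80 with TMM scaling (76 shared with the 103), 85 with RLE scaling (78 shared), and between 99 and 113 with 1 library left out, where 77 members met the rule in all 8 cases. For T_RT versus N_RT, the 16 members higher became 11 to 18 and the 32 lower became 24 to 33 with 1 library left out, and 11 and 24 with DESeq2. With a replicate block the counts were 15 higher and 31 lower, and 103 higher in T_CS versus N_CS. The numbers do not pair the libraries, since deviations of same-numbered libraries correlated by -0.034 to 0.024, and the block is given for completeness. In T_CS versus N_CS, 103 members stayed higher under each alternative run except with near-equal neighbours left out, where 98 of 98 remained. Among the fitted T_RT versus N_RT and T_CS versus N_CS fold changes of the 10 members with the largest gap, the trehalose-6-phosphate synthase genes and the members picked out at room temperature, no called direction reversed under an alternative, 14 values lost their call and 574 stayed on their side of the threshold. Motif searches upstream of the genes were not run, since no promoter sequence could be matched. Depth limits the precision of low members, such as ONAC59 in N_CS with 21 and 13 counts.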
